A study of Mus musculus with 2 samples.

Results

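The Hox genes encode homeodomain transcription factors whose order in 4 chromosomal clusters, Hoxa, Hoxb, Hoxc and Hoxd, follows the head-to-tail order in which they are expressed. Their signal was examined in mouse esophagus at E18.5, shortly before birth. Members were all probe sets whose single gene symbol on the platform annotation was a Hox gene of these clusters. There were 48 such probe sets of 45101 in the table. They stand for 33 of the 18193 named genes.

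The study hybridized total esophageal RNA to 2 Affymetrix arrays, 1 from wild-type BALB/c embryos and 1 from BALB/c embryos labelled null for both Myf5 and Myod1 (Myf5-/-:MyoD-/-) (transcription factors of skeletal muscle commitment). By its title, the series concerns striated muscle taking the place of smooth muscle in this organ. The number of embryos per array and the design of the null alleles are not stated in the labels. With 1 array per genotype no test was possible, and each difference is between 2 RNA samples.

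Genes of the same position in the different clusters form a paralog group, numbered 1 to 13. Groups with low numbers act in the hindbrain, pharynx and neck, and those with high numbers in the trunk, limbs, hindgut and tail. In the gut, Hox genes are expressed mainly in the mesenchyme and the enteric nervous system, in domains that start at different levels of the tube. Hoxc4 is among the group 4 genes known to act in this organ: mice lacking it have defects of the esophageal wall and its muscle.

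The arrays checked against their labels as follows. Myf5 read 4072 in the wild type but 496 on the null-labelled array. Values are given in this order throughout. Myod1 read 2001 and 1698 at its brighter probe set, so the label is not borne out at this gene, and the second array is called the null-labelled array. The labels do not say which part of either gene was deleted, so neither probe set settles the loss of its protein. The esophageal epithelium and smooth muscle markers, 7 in each list, were all at or above the low-signal limit on both arrays. RNA integrity can be read from how much stronger a control transcript is at its 3' than at its 5' end. That ratio for beta-actin was 12.6 (wild type) and 14.2 (null-labelled), while for Gapdh it was 10.5 and 6.96. Both controls thus read many times stronger at the 3' end on both arrays, and the arrays differed more for Gapdh than for beta-actin. How far such a 3' bias lowered the signals of other probe sets, including those below the low-signal limit, was not tested.

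The promoters of Hoxd8, Hoxd9, Hoxc4 and Hoxb4 are shown because they are the 4 Hox genes at least 2-fold apart between the arrays in the results that follow. Each sequence is the 250 bases before the RefSeq start of transcription in GRCm38.p6, 5′ to 3′, with CpG dinucleotides in capitals.
Hoxd8 (chr2:74704365-74704614, + strand): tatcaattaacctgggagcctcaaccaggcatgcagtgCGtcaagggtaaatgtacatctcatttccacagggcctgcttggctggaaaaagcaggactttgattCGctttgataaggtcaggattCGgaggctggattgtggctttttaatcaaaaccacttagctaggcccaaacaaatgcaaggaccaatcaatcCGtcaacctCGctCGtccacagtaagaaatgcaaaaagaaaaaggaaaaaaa
Hoxd9 (chr2:74697513-74697762, + strand): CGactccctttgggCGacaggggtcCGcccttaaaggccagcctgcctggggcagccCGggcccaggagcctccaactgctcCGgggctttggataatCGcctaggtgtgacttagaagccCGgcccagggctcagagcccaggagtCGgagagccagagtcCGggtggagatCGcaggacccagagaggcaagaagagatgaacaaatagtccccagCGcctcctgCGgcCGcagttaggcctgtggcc
Hoxc4 (chr15:103034145-103034394, + strand): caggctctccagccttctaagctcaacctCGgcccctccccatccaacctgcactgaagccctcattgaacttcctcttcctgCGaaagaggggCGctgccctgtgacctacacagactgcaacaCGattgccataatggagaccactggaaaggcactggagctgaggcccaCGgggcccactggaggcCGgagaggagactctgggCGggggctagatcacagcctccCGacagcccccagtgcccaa
Hoxb4 (chr11:96318017-96318266, + strand): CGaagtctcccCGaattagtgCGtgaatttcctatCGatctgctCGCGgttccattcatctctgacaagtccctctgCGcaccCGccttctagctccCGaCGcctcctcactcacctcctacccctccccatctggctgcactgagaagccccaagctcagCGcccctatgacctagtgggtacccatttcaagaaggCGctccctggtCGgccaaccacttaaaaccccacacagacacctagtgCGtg
Hoxd8 and Hoxd9 are neighbours in the Hoxd cluster, yet the Hoxd8 window held 6 CpG and 44.4% G or C, and the Hoxd9 window 13 CpG and 65.2%. The Hoxc4 and Hoxb4 windows held 8 and 14 CpG. The median was 12 over 24 windows of 22 Hox genes and 6 over all 32851 windows of this length in the table. Of these 22 genes, 19 are among the 33 members. Each window was searched on both strands for TGATNNAT, a joint site of Pbx and Hox proteins, TGACAG, the Meis site, and CAGCTG, an E-box form that myogenic factors bind. No motif contains another. None of the 4 windows held any of them. Over all Hox windows, TGATNNAT was found in 16.7%, against 7.68% of all windows, TGACAG in 8.33% against 15.9%, and CAGCTG in 3 of 24 against 4271 of the 32851. The windows with CAGCTG included Hoxa5 and Hoxa3, and those with TGATNNAT included Hoxa2 and Hoxb1.

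Signals are MAS5 intensities on a linear scale, scaled by the authors to 1 mean on both arrays. A signal of 489, the median of all probe sets that are no controls, was used as the low-signal limit. It stands in for detection calls and does not show that a gene is off. The median of the wild-type array alone was 393 and that of the null-labelled array 581. Low signals thus read higher on the null-labelled array in general, and a gene can cross the limit upward for that reason. A gene took its probe set with the highest mean signal, and a gene at or above the limit on at least 1 array is called measured. Signals below the limit were raised to it before a ratio was taken, so such a ratio is a bound, written "at least". Signals of different probe sets are not comparable, and no Hox gene is ranked above another here.

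At this limit, anterior Hox genes reached it more often than posterior ones on both arrays. Of the 13 genes of groups 1 to 5, 8 reached it on the first array and 11 on the second. Of the 6 genes of groups 6 to 8, 2 and 4 reached it. Of the 14 genes of groups 9 to 13, 1 and 3 reached it. In percent these shares were 61.5 and 84.6 for the anterior, 33.3 and 66.7 for the central and 7.14 and 21.4 for the posterior groups, against 60.8 and 69.3 over all 18193 named genes. Thus the posterior share lay below that of all genes on both arrays, and the anterior share was close to it on the wild-type array. Anterior genes have more probe sets each. Over single probe sets, 11 and 14 of the 22 anterior ones reached the limit, and 5.88% and 17.6% of the posterior ones, against 44.6% and 55.4% of all probe sets. With the limit at the 25th percentile, a signal of 168, 11 and 11 of the 13 anterior and 5 and 10 of the 14 posterior genes reached it, so on the null-labelled array the contrast was small at that limit.

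**Figure D1:**
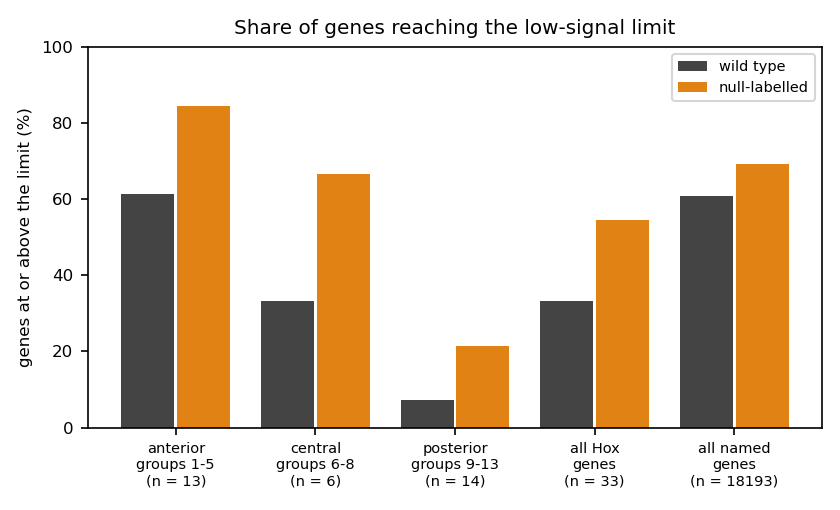
Percent of Hox genes at or above the low-signal limit of 489 on the wild-type (grey) and null-labelled (orange) arrays, by paralog group class, beside all Hox and all named genes; n is the number of genes, with 1 array per genotype and so no error bars. The share falls from 61.5% and 84.6% in groups 1 to 5 to 7.14% and 21.4% in groups 9 to 13.

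The arrays gave the same state at the limit for 24 of 33 Hox genes: 10 were at or above it on both and 14 on neither. Another 8 reached it on the null-labelled array only, 24.2% of Hox genes against 12.4% of all named genes. A gene must be below the limit in the wild type to do this. There 33.3% of Hox genes reached it against 60.8% of all named genes, so the 2 shares have unlike bases and show no excess of Hox genes. Only Hoxd9 reached it on the wild-type array alone, 3.03% against 3.92%. Across the 33 genes the log2 signals of the 2 arrays correlated with Pearson's r = 0.64 (Spearman's rho = 0.64), against 0.87 (0.90) across all named genes. The median wild-type signal was 196 for the Hox genes and 821 for all named genes. The comparison was not matched for signal, so it does not show that the arrays agree less for Hox genes as such. These correlations are across genes, which share the arrays and the affinity of their probes and are not replicates.

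Groups 1 to 3 pattern the hindbrain and the pharyngeal arches. Hoxa2, the identity gene of the second arch, read 1231 and 1419. Hoxb2 read 774 and 1231. Hoxa3, needed for the thymus and parathyroid, read 1565 and 1767, and Hoxb3 read 1459 and 2567. All 4 were at or above the limit on both arrays, with ratios of 1.13-fold to 1.76-fold higher on the null-labelled array. Hoxb1, which specifies a hindbrain segment, read 175 and 657, and Hoxd3, which acts in the cervical vertebrae, 395 and 584. Both crossed the limit upward, Hoxd3 only to near the null-labelled array's own median of 581. Hoxd1 read 40.7 and 38.7, below it on both. The second Hoxb3 probe set read 531 and 1189, in the same direction as the first. Of the other 3 probe sets of Hoxa3, 2 also read higher, at 488 and 1044 and at 363 and 661, while the third read 249 and 81.6, below the limit on both arrays.

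Groups 4 and 5 belong to the neck, where the esophagus starts. Hoxc4 read 2939 and 1328, 2.21-fold lower on the null-labelled array. Hoxa5, which is needed for the trachea, lung and stomach, read 12172 and 6650, 1.83-fold lower, and its other probe set read 910 and 462, with a log2 bound of -0.90 against -0.87 at the first. The first Hoxa5 probe set carries the suffix _x_at, which marks probes that can bind other transcripts, but both probe sets gave the lower value on the null-labelled array. Hoxb4, known from blood stem cells, went the other way with 593 and 1939, 3.27-fold higher. On both arrays its second probe set fell short of the limit (173 and 183), so the difference rests on 1 probe set. Hoxc5 read 1302 and 1757 at its brightest probe set, 1.35-fold higher, but 521 and 310 at another. Hoxa4 read 366 and 699 at a probe set with the suffix _x_at, and 355 and 295, below the limit on both arrays, at its other one. Hoxb5, a gene of enteric neural crest cells, read 87.1 and 81.9, below the limit on both arrays. Within group 4 the cluster members therefore differed in direction: Hoxc4 was lower and Hoxb4 higher. The Hoxa4 bound of at least 1.43-fold higher (0.52 on the log2 scale) was 0.02 with the median of its probe sets, and the gene was not measured without probe sets ending in _x_at or _s_at.

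Groups 6 to 8 act mainly in the thorax. With low signals raised to the limit, Hoxd8 had the largest Hox ratio in either direction. It read 4154 and 551, 7.54-fold lower on the null-labelled array, at its brighter probe set. Its other probe set read 2339 and 627, with a log2 ratio of -1.90 against -2.91, so both were lower but their sizes differed by 1.01. Hoxc6 read 1182 and 1485, and its other 2 probe sets read 544 and 982 and 481 and 742, all higher on the null-labelled array. Hoxb6 read 196 and 849 and Hoxb7 48.9 and 750. Both crossed the limit upward, with ratios of at least 1.74-fold and at least 1.53-fold. Hoxa7 (53.2 and 117) and Hoxc8 (317 and 115) stayed below it.

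Groups 9 to 13 act in the lower trunk, the limbs and the hindgut. Hoxd9, a gene of the limbs and the lumbar region, read 1192 and 203, at least 2.44-fold lower. It was the 1 posterior gene at or above the limit on the wild-type array. Another 3 posterior genes crossed the limit upward, each with 1 probe set that did so: Hoxb9 read 52.1 and 610, Hoxa13, of the digits and hindgut, 389 and 582, and Hoxd13, also of the digits, 160 and 778. The Hoxa13 signals lie close to each array's own median, 393 and 581. The second Hoxd13 probe set read 32.9 and 328, below the limit on both arrays. The other 10 posterior genes were below the limit on both arrays. They were Hoxa9, Hoxc9, Hoxa10, Hoxc10, Hoxd10, Hoxa11, Hoxd11, Hoxd12, Hoxb13 and Hoxc13. All 14 genes below it on both arrays, of any group, read between 11.5 and 319 in the wild type and between 37.2 and 446 on the other array.

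**Figure D2:**
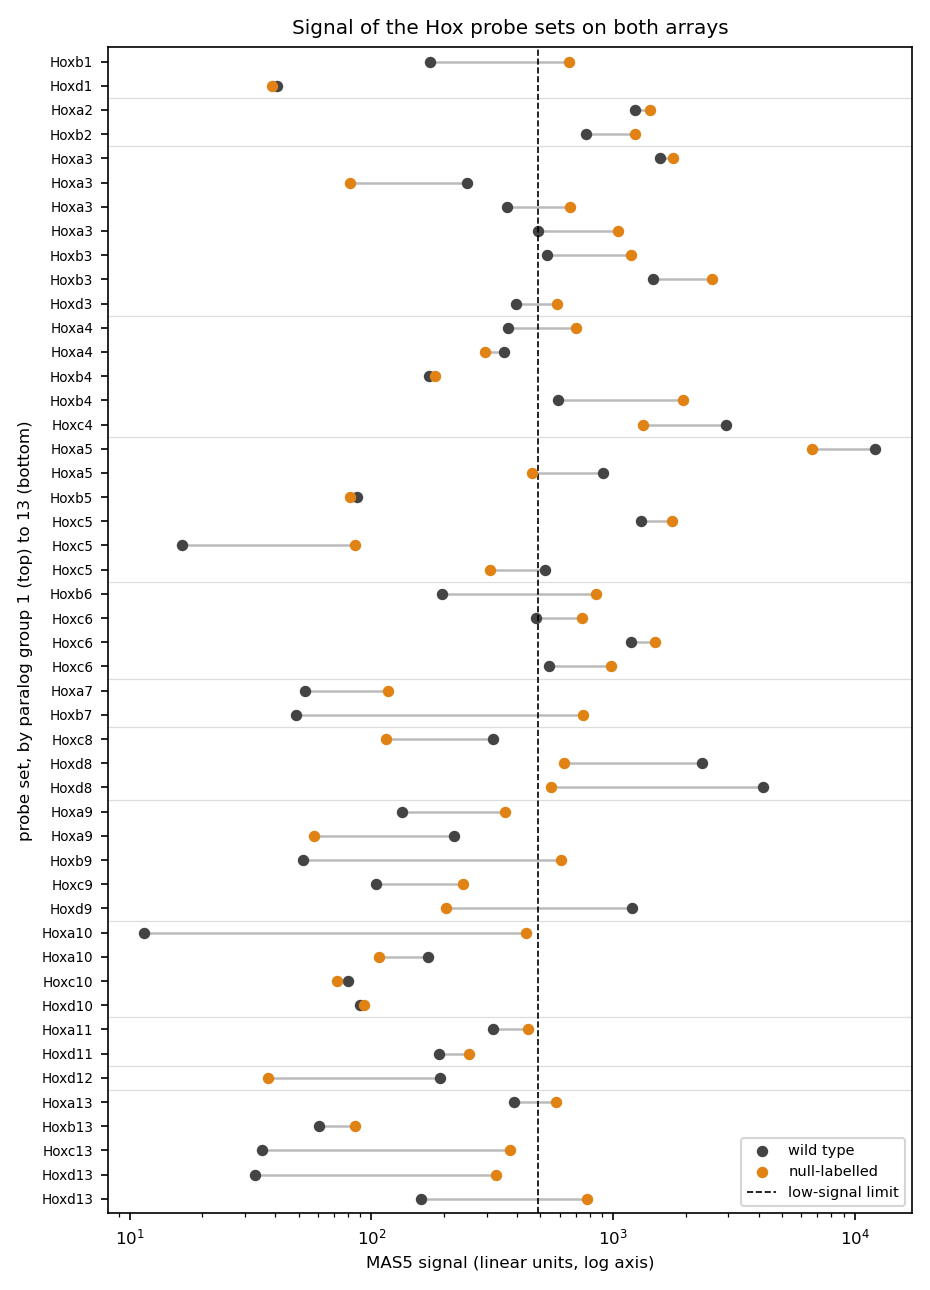
MAS5 signal (log axis) of each of the 48 Hox probe sets on the wild-type (grey) and null-labelled (orange) arrays, ordered by paralog group from 1 at the top to 13 at the bottom; each point is 1 array and the dashed line is the limit of 489. Both Hoxd8 probe sets, at 4154 and 551 and at 2339 and 627, lie far to the right on the wild-type array, and 13 of the 17 probe sets of groups 9 to 13 lie left of the line on both arrays.

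Of the 19 measured Hox genes, 3 were at least 2-fold lower on the null-labelled array (Hoxd8, Hoxd9 and Hoxc4) and 1 was at least 2-fold higher (Hoxb4). That is 15.8% and 5.26%, against 5.36% and 6.01% of the 13315 measured genes. The higher share is near that of all genes, and with so few members neither share was tested. The only error that 2 arrays allow is how far the probe sets of a gene differ in their log2 ratio. This was an SD of 0.56 over 14307 probe sets of 5455 genes and 0.40 over 14 probe sets of 6 Hox genes. It was taken with signals below the limit raised to it and without probe sets below it on both arrays, which can narrow the spread. It leaves out all variation between embryos. The ratios of Hoxd8, Hoxd9, Hoxc4 and Hoxb4 (-2.91, -1.28, -1.15 and 1.71 on the log2 scale) are larger than this spread. Among the other Hox genes at or above the limit on both arrays, the ratios ran from -0.87 (Hoxa5) to 0.81 (Hoxb3). These lie within or near the spread. The remaining ratios are bounds, such as that of Hoxb7 (48.9 and 750), and cannot be placed against it. Hoxc4 and Hoxd9 have 1 probe set each and Hoxb4 1 measured probe set, so only Hoxd8 of the 4 could be compared between probe sets. The same 3 lower genes were named with centring, quantile normalization, loess, the 25th percentile limit and the median of probe sets. With the limit at the 75th percentile Hoxd9 was not measured and Hoxb4 was 0.47.

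Most of the measured Hox genes had a ratio above 0. These were 15 of 19, or 78.9% against 56.6% of all measured genes, with a median log2 ratio of 0.33 against 0.09. The ratio was a bound for 8 of the 15, genes that were below the limit on the wild-type array. Among the 10 Hox genes at or above it on both arrays, 7 were above 0, against 51.0% of all such genes. Loess on signal lowered the median of the 19 to 0.13 and left 13 above 0, with 48.6% of all genes. With the limit at the 25th percentile 9 Hox genes were at least 2-fold higher in place of 1, while 2742 of all genes were in place of 800.

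The cluster medians differed in sign. In Hoxb all 7 measured genes were above 0, with a median of 0.67 (0.32 to 1.71), but 4 of the 7 ratios are bounds. Each of these 7 stayed above 0 in every alternative that measured it. For the 4 bounds, raising the wild-type signal to the limit sets a ratio above 0 in advance, so their sign is no support. The other 3, Hoxb2, Hoxb3 and Hoxb4, could have had either sign. Hoxa had a median of 0.21 over 5 genes and Hoxc of 0.33 over 3. In Hoxd the median over 4 genes was -0.51, with neighbours Hoxd9 and Hoxd8 lower and Hoxd13 and Hoxd3 crossing the limit upward. With the limit at the 25th percentile the Hoxd median was 0.11 over 6 genes, and the Hoxb median 1.86. By position, the medians were 0.43 for groups 1 to 5, 0.47 for groups 6 to 8 and 0.28 for groups 9 to 13. Of the measured genes behind them, 8 of 11, 2 of 4 and 0 of 4 were at or above the limit on both arrays. The other ratios are bounds with a sign set in advance, so these medians show no trend by position. Ratio and paralog group number correlated with r = -0.19 (rho = -0.17) across the 19 genes, bounds included, given as a description of genes that share 2 arrays.

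**Figure D3:**
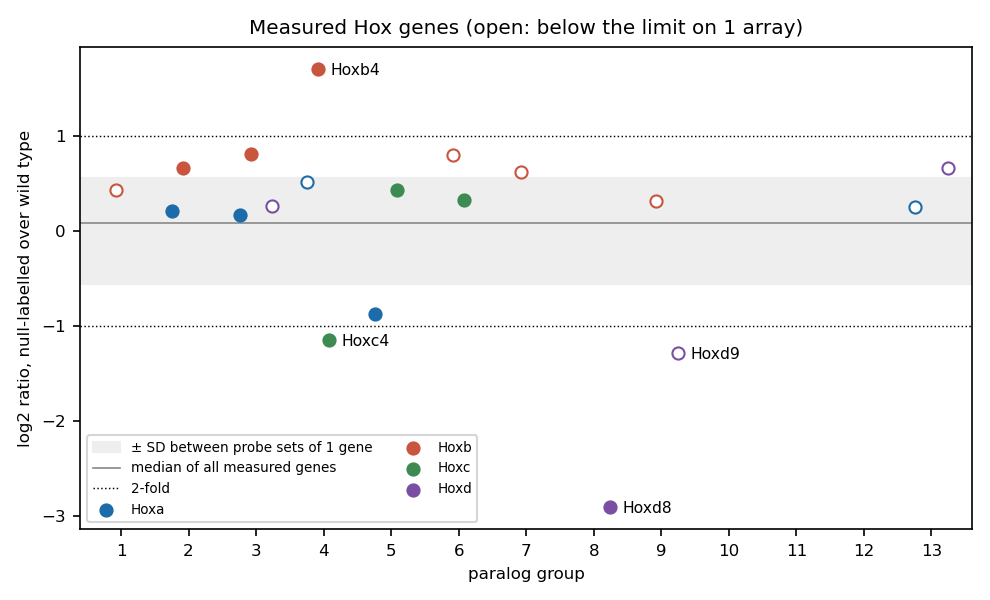
Log2 ratio (null-labelled over wild type) for the 19 measured Hox genes against paralog group, coloured by cluster; open circles are bounds, the grey band is ± 0.56, the SD between probe sets of 1 gene, and dotted lines mark 2-fold. Hoxb4 (1.71) lies above and Hoxc4, Hoxd9 and Hoxd8 (-1.15, -1.28 and -2.91) below the 2-fold lines.

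The 2 arrays also differed in markers of other cell types. All 7 skeletal muscle markers were at least 2-fold lower on the null-labelled array, with a summed signal of 338985 and 6046, and Tnnc2 and Myh8 below the limit there. The part of this difference in the lower Hoxd8, Hoxd9 and Hoxc4 signals was not tested. In whole tissue, fewer cells of a type and less RNA per cell cannot be told apart. Mesenchyme can express Hox genes. None of 6 fibroblast markers was 2-fold apart, with log2 ratios of -0.05 to 0.76 and sums of 313500 and 449358. The 7 smooth muscle markers went both ways, with a median of 0.25. Des read 3066 and 1094, 2.80-fold lower, and Cnn1 (10808 and 6385) and Tagln (26359 and 19059) also read lower. The other 4 read higher, with Acta2 at 131127 and 242976 the main part of the list's sums of 208451 and 323491. Of 6 measured enteric neuron genes, 1 was lower and 0 higher, with sums of 8868 and 7318. Of 7 squamous epithelium markers, 1 was lower and 0 higher by 2-fold (sums of 386286 and 462288). Krt4, at 173385 and 259124, was the largest part of these sums, while 4 of the 7 had ratios below 0. Of 4 measured glial markers, 0 were 2-fold apart (22259 and 14801), and Erbb3, at 18562 and 11224, was the main part of these sums. Of 4 endothelial markers, 0 were lower and 1 higher, and Pecam1 was below the limit on both arrays (5223 and 4989). Of 4 leukocyte markers, 1 was lower and 1 higher, and Cd68 and C1qa were below the limit on both (27757 and 31076). The higher was Ptprc (585 and 5010, 8.57-fold) and the lower C1qb (3308 and 1607). Csf1r (14020 and 14108) and Laptm5 (9204 and 9899) made up most of these sums.

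Markers of other organs near the esophagus or of posterior tissue were dim in some lists and present in others. Below the limit on both arrays were 6 of 8 stomach genes (Tff2, Gkn1, Gkn2, Muc5ac, Gast and Atp4a), 5 of 6 intestine genes (Vil1, Fabp2, Cdx1, Cdx2 and Apoa4) and 4 of 5 spinal cord genes (Olig2, Lhx3, Sox1 and Olig1). The sums were 3832 and 6807 for stomach, 826 and 2374 for intestine and 1594 and 2446 for spinal cord. Of 7 lung and airway genes, only Nkx2-1 and Scgb1a1 were below it on both, and the sum was 8149 and 5450. Scgb3a2, of airway secretory cells, read 5302 and 692, 7.66-fold lower, and made up most of the wild-type sum. The other 4 measured genes of this list had ratios above 0. Of 5 thymus and thyroid genes, only Foxn1 was below it on both, and the sum was 2250 and 5123. Rag1, of developing lymphocytes, read 256 and 2823, at least 5.77-fold higher. Cd8a went the other way, at 1492 and 677, 2.20-fold lower, the 1 of 4 measured genes of this list below 0. In cartilage, Col2a1 and Matn1 of 6 genes were below it on both arrays, and the sum was 2958 and 4809. Among 5 limb genes, Tbx4 and Lmx1b were below it on both, with sums of 7696 and 5819. Tbx5 read 113 and 1558 while Pitx1 read 6458 and 4058. The part of such tissue in the Hox signals was not tested.

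Hox proteins bind DNA with cofactors of the Pbx, Meis and Pknox families. Of 7 measured cofactor genes, 2 read lower by 2-fold or more and 0 higher, or 28.6% and 0%, against 5.36% and 6.01% of all measured genes, with a median of 0.21. Pbx2 read 3799 and 1427, 2.66-fold lower, and 2963 and 1143 at another probe set, but 1355 and 1675 at the remaining one. Pknox1 read 1044 and 109, at least 2.13-fold lower, while its second measured probe set read 494 and 573. Neither lower gene was lower at all of its probe sets. Meis3 crossed the limit upward, at 203 and 739, at least 1.51-fold. Meis1 read 6708 and 9455, 1.41-fold higher, and 2477 and 3782 at another probe set.

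Retinoic acid sets the anterior borders of Hox expression, through enzymes that make it and break it down. Of 12 measured genes of its pathway, 1 was 2-fold lower and 1 higher, 8.33% each, near the 5.36% and 6.01% of all measured genes. Dhrs3, which turns retinaldehyde back to retinol, read 2809 and 1207, 2.33-fold lower. Cyp26b1, which degrades retinoic acid, read 95.7 and 1239, at least 2.53-fold higher. The synthesis genes Rdh10 (4558 and 7990) and Aldh1a1 (8194 and 13842) were 1.75-fold and 1.69-fold higher, and Rdh10's second probe set read 2942 and 3173. The list's median of 0.34 was 0.01 with quantile normalization and -0.02 with loess.

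Polycomb and Trithorax proteins keep Hox genes silent or active. At the probe sets used, none of their 21 measured genes was 2-fold apart, with a median of 0.20 and a range of -0.65 to 0.93. Over all measured genes 5.36% were lower and 6.01% higher, and with so few members the difference was not tested. The largest ratios were those of Pcgf2 (332 and 931), Kdm6b (3908 and 7410), Ring1 (198 and 847) and Phf19 (634 and 1054). Kdm6b disagreed between probe sets, with 5338 and 1441 at another. Men1 also read 1108 and 255, and Mtf2 550 and 1237, at probe sets that were not used. The genes beside the clusters showed no 2-fold difference either at the probe sets used, 0 of 10, with a median of -0.18. Set against the same shares of all measured genes, 10 genes are too few to read a lack of change from this. Other probe sets disagreed: Skap2 read 496 and 1770 at 1, and Lnpk 429 and 1063 at 1 and 873 and 215 at another. Evx1 (244 and 801) and Evx2 (549 and 935), homeobox genes at the posterior ends of Hoxa and Hoxd, read higher on the null-labelled array. Mtx2 (4537 and 3044) and Ttll6 (816 and 138) read lower.

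Other factors of gut position were compared too. Of the 6 ParaHox and Cdx genes, 5 were below the limit on both arrays. Among the 6, Pdx1 and the Cdx genes mark the pancreas, duodenum and hindgut, whereas Gsx1 and Gsx2 do not. Cdx1 read 35.7 and 152, Cdx2 140 and 406 and Pdx1 58.4 and 139. Gsx2 crossed it, at 238 and 588. Of 13 measured regional factors, 1 was 2-fold lower and 1 higher, 7.69% each, again near the shares of all measured genes. Isl1, a factor of pharyngeal mesoderm and motor neurons, read 5542 and 383, at least 11.3-fold lower, and 2080 and 894 at its second probe set. Hnf4a, a factor of gastric and intestinal epithelium and liver, read 291 and 1283, at least 2.62-fold higher, and 2 of its other probe sets also crossed the limit upward. Foxa2 read 1032 and 1912. Foxf1, of gut mesenchyme, read 4212 and 7716, but 664 and 461 at its second probe set. Nkx2-1, of lung and thyroid, and Barx1, of stomach mesenchyme, were below the limit on both arrays.

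**Figure D4:**
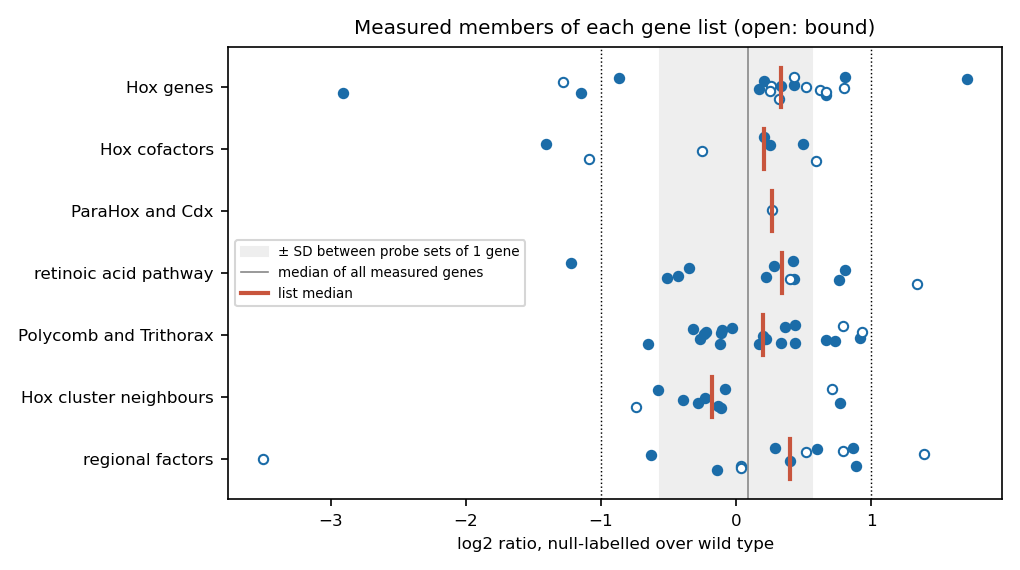
Log2 ratio (null-labelled over wild type) for the measured members of the Hox, regulator and regional factor lists (cell type and organ lists are not drawn); each point is 1 gene, open points are bounds, red bars are list medians, the grey band is ± 0.56 and dotted lines mark 2-fold. Isl1 (-3.50) and Hoxd8 (-2.91) lie farthest left of the genes drawn, and the medians drawn lie between -0.18 and 0.40.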

How the data were processed

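Total RNA from E18.5 esophagus was labelled with biotin (6 µg per array) and hybridized to Affymetrix arrays, per the labels' protocols. The deposited intensity values are MAS5 signals on a linear scale, made by the authors per the submitters' processing notes. No version or setting of MAS5 is stated. Their mean after trimming 2% from each end was 1500 on both arrays. Of 45101 probe sets, 64 are controls, 34945 have 1 gene symbol, 932 several and 9160 are unnamed here. Names came from GEO's platform annotation, updated by Entrez ID through RefSeq (GRCm38.p6), which held all 48 Hox probe sets. The number of arrays limits the precision.

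Log2 ratios, the limit of 489 and the 2-fold rule are described with the results. No p-value was computed. All Hox genes measured on at least 1 array are named, with up to 4 measured members of each regulator and regional list by size of ratio, and cell type and organ lists by counts, sums and the members below the limit on both arrays. A few further members of those lists were chosen after their values were seen. Members and lists were chosen with earlier results of these data known. Scripts were tested on simulated data. Alternatives were other scalings, limits, probe set rules and thresholds. Promoters are RefSeq's. The scripts ran in Python 3.11.15, using pandas 2.3.3, numpy 2.4.6 and, for loess, statsmodels 0.14.6.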

Additional observations from a re-analysis of the deposited data

How the results depend on the processing

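No paired analysis was possible because each genotype has 1 array, and none could be left out. Of the 4 genes named 2-fold apart, Hoxd8 and Hoxc4 were so in all 8 alternatives that move a ratio, Hoxd9 in 7 of the 7 that measured it and Hoxb4 in 7 of 8. Among the other measured Hox genes, Hoxd3 and Hoxa13 changed sign in 2 of 7 alternatives and Hoxc5 in 1 of 8. The limit moved most counts, by construction. At the 25th percentile, 20 Hox genes reached it on the wild-type array, 4 of them central and 5 posterior, and 10 posterior genes did on the null-labelled array. At the 75th percentile, a signal of 1399, 5 genes reached it in the wild type and 7 on the other array, of which 4 and 6 were anterior, 1 and 1 central and 0 and 0 posterior. With each array's own median as the limit, 12 and 17 Hox genes reached it, of which 9 and 11 were anterior, 2 and 3 central and 1 and 3 posterior. Counts at least 2-fold higher were 9 at the 25th percentile, 0 at the 75th, 10 with no limit and a pseudocount of 16, 2 without probe sets ending in _x_at or _s_at, 6 at 1.5-fold and 0 at 4-fold. Counts 2-fold lower were 5 with the pseudocount and 1 at 4-fold. Ratios above 0 numbered 6 of 9 at the 75th percentile and 24 of 33 with the pseudocount. The median of all Hox genes was 0.20 with quantile normalization, 0.13 with loess, 0.56 and 0.09 at the 25th and 75th percentiles and 0.46 with the pseudocount. The anterior median was 0.20, 0.13, 0.17 at the 75th percentile and 0.26 by the probe sets' median; the central one turned to -0.74 at the 75th, over 2 genes; the posterior one was 0.58 at the 25th. For Hoxa it was 0.53 at the 25th percentile and 0.56 with the pseudocount. For Hoxb it was 0.43 with quantile normalization, 0.41 with loess, 1.86 and 1.68. For Hoxc it was -0.09 with the median of probe sets. For Hoxd it was -0.82 with loess, 0.11 at the 25th, -1.57 at the 75th, over 1 gene, and -0.01 with the pseudocount. Among the other lists, cofactors moved to 0.50 and Polycomb to 0.03 without _x_at and _s_at, cluster neighbours to 0.03 with the median of probe sets, retinoic acid genes to 0.01, -0.02 and 0.04 with quantile normalization, loess and the 75th percentile, ParaHox genes to 1.27 and 1.15 and regional factors to 0.74 and 0.61 at the 25th percentile and with the pseudocount. Fewer or more genes measured accounts for the changes in n, and other causes were not tested. Over all genes, the 714 lower and 800 higher became 938 and 449 with loess. The correlation of the arrays uses no limit, so that alternative was not run for it; centring cannot change it.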

Other observations

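Some probe sets in the Hox clusters fall outside the members because they carry several symbols or name a noncoding transcript. The 2 probe sets shared by Hoxd4 and Hoxd3 read 656 and 428 (wild type first), and 129 and 185. The one shared by Hoxb8 and Hoxb7 read 273 and 492. Hoxb5os, a noncoding transcript beside Hoxb5, read 696 and 533, at or above the limit on both arrays, while Hoxb5 itself was below it on both. Hoxd3os1 read 580 and 448 at its brighter probe set. Hoxa11os read 34.8 and 389 at its brighter probe set, below the limit on both arrays, as was Hoxa11.

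Some low wild-type signals stand out by size before the limit is applied. Hoxa10 read 11.5 and 434, Hoxc13 35.3 and 376 and Hoxd13 32.9 and 328 at 1 probe set each, all below the limit on both arrays, so no ratio is given.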
